A study of Mus musculus with 44 samples.

Results

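Among 11 libraries of mouse ovarian follicles that received hCG together with PFNA, 7 had more transcript of the LH receptor gene Lhcgr than any control library of the same window, and 4 did not. These 7 libraries form the Lhcgr-high class (replicates 1, 2, 3, 5, 6, 8 and 9) and the other 4 the Lhcgr-low class (replicates 4, 7, 10 and 11). The members were chosen by the measured level of Lhcgr itself, in CPM (the count scaled to a library total of 1000000), with the highest control as the threshold. Every difference between them is therefore a description without a test. The series holds 44 libraries of follicles from wild-type CD-1 mice, an outbred strain, exposed either while they matured or while hCG drove ovulation. In the ovulation window 12 control libraries had received hCG (human chorionic gonadotropin, a hormone that acts on the LH receptor), and the 11 PFNA libraries had received hCG plus PFNA (perfluorononanoic acid, a perfluorinated compound). The labels name no dose, time, age or pooling and do not say whether libraries of a group came from separate animals or cultures, so p-values measure the spread between these libraries, which may be technical. In the maturation window 10 control libraries were used here, for a comparison within that window only.

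The LH receptor is a G protein coupled receptor of theca cells and of the mural granulosa cells of large follicles, where FSH brings up its transcript as the cells differentiate. When LH or hCG binds it, cAMP and protein kinase A set off a wave of ovulatory transcripts, among them the EGF-like growth factors, the progesterone receptor and prostaglandin synthase, and the Lhcgr transcript itself normally falls for a time. Star and Cyp11a1, which bring cholesterol into the mitochondrion and cleave it to pregnenolone, mark the steroid-making cells of the follicle.

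Lhcgr (chr17:88737274-88792014, minus strand in the deposited table) ran from 25.2 to 96.0 CPM in the controls, with a median of 43.4. In the high class it was 717 CPM in replicate 6, 355 in replicate 5, 197 in replicate 3, 178 in replicate 1, 170 in replicate 9, 101 in replicate 2 and 98.4 in replicate 8. In the low class it was 70.4 CPM in replicate 7, 61.1 in replicate 4, 58.5 in replicate 11 and 55.6 in replicate 10. Replicates 8 and 2 lie just inside the threshold of 96.0 CPM. Replicate 7, at 70.4 CPM, is the highest of the low class, which lies wholly within the control range. With library sizes normalized by TMM, which scales each library by its trimmed mean ratio to a reference, the threshold became 113 CPM and replicates 2 and 8 joined the low class, giving 5 high and 6 low libraries.

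The markers given with the classes parted them only in Lhcgr. Star was 339, 284, 248, 223, 164, 158 and 173 CPM in replicates 6, 5, 3, 1, 9, 2 and 8 of the high class, and 289, 144, 80.5 and 191 CPM in replicates 7, 4, 11 and 10 of the low class. Cyp11a1 was 932, 667, 481, 259, 221, 200 and 237 CPM in the high class and 285, 158, 207 and 134 CPM in the low class, in the same order of replicates. Both genes overlapped between the classes, Star through low-class replicates 7 and 10 and Cyp11a1 through replicates 7 and 11. Inha, the inhibin subunit that marks granulosa cells, was 3583 to 7561 CPM in the high class and 4836 to 5892 CPM in the low class. The classes are therefore called by their Lhcgr level and not as more or less differentiated follicles.

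Promoter sequence is shown for Lhcgr, which set the classes, and for Areg and Pgr, ovulatory genes whose levels parted with it. Each is the 250 bases before the gene start, from RefSeq on GRCm38.p6, written 5′ to 3′ on the gene's strand. The windows are chr17:88792015-88792264 (minus strand) for Lhcgr, chr5:91139349-91139598 (plus strand) for Areg and chr9:8899583-8899832 (plus strand) for Pgr. Capitals mark the GC box GGGCGG and the cAMP response element TGACGTCA.
Lhcgr: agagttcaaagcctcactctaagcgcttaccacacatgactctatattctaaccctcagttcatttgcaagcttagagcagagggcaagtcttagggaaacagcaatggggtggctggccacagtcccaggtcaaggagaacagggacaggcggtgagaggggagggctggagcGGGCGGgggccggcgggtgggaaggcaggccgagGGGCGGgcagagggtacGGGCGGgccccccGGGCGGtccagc
Areg: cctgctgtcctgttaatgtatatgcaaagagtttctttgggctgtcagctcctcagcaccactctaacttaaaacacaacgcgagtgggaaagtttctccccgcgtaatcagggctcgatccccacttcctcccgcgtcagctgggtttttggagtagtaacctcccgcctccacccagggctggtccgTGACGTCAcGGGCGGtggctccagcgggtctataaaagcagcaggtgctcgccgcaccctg
Pgr: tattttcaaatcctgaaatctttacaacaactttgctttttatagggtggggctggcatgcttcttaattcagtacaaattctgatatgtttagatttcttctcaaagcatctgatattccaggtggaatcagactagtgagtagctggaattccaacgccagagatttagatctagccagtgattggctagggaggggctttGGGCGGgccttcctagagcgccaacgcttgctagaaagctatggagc
Lhcgr holds 4 GC boxes in this window and Pgr holds 1. Areg holds 1 GC box right behind a cAMP response element, the site bound by CREB-family factors. Besides Lhcgr, 18 genes lay apart between the classes by at least 2-fold, and 11 of these matched a RefSeq promoter. Over the 250 bases before to 50 after the start, on either strand, TGACGTCA occurred in 1 of the 11 (Areg) and in 1.79% of all 32851 promoters, and GGGCGG in 5 of the 11 and in 35.7% of all. The NR5A site TCAAGGTCA and the GATA site AGATAA occurred in none of the 11, against 0.423% and 11.2% of all promoters, and the heat shock element core GAANNTTC in 1 (Cldn2), against 7.86%. A match here is a stretch of letters and no evidence of binding.

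Few genes followed Lhcgr without overlap. Of 13440 genes tested, with Lhcgr left out, 28 (0.208%) were higher in every high-class library than in every low-class library, and 26 (0.193%) were lower in every one, 54 in all (0.402%). The mean levels differed by at least 2-fold in 16 of the 28 (0.119% of genes tested) and in 2 of the 26 (0.0149%). These are counts without a test, and nothing is read from them beyond the genes named. Sult1e1 and Pgr, members of the ovulatory wave, differed most among the genes above 10 CPM. Leaving out a library can only add genes to such a count, and it came to between 66 and 189 genes in all when each library was left out in turn.

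Pgr encodes the progesterone receptor, which is needed for follicle rupture. It was 202, 106, 90.9, 75.4, 71.9, 37.8 and 49.5 CPM in replicates 6, 5, 3, 1, 9, 2 and 8, and 27.3, 13.3, 25.2 and 22.2 CPM in low-class replicates 7, 4, 11 and 10. The 5 libraries highest in Lhcgr stood in the same order in Pgr. The class means were 90.4 ± 54.2 CPM (SD, n = 7) and 22.01 ± 6.19 CPM (SD, n = 4), a difference of 1.85 on the log2(CPM + 1) scale. All 11 PFNA libraries lay below every control, whose range was 468 to 1368 CPM. The high class thus kept 10.7% of the control mean and the low class 2.61%, although the low class and the controls shared the same range of Lhcgr.

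Sult1e1 encodes estrogen sulfotransferase, which inactivates estrogens by sulfation. It was 269, 113, 113, 89.4, 81.2, 49.8 and 51.1 CPM in the high class (replicates 6, 5, 3, 1, 9, 2 and 8) and 41.6, 10.2, 24.4 and 25.3 CPM in the low class (replicates 7, 4, 11 and 10). The difference of 1.997 (log2) was the widest among the genes above 10 CPM that lay apart. Controls ranged from 1327 to 3298 CPM, so that the high class stood at 5.16% of the control mean and the low class at 1.196%.

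Areg encodes amphiregulin, an EGF-like factor that passes the LH signal from mural granulosa to cumulus cells. It was 161, 55.3, 98.4, 64.9, 56.5, 52.4 and 36.8 CPM in the high class and 27.9, 16.9, 21.2 and 31.1 CPM in the low class, a log2 difference of 1.47. The other EGF-like factors of the wave, Ereg and Btc, had higher means in the high class but overlapped. Ereg was 264 ± 190 CPM (SD, n = 7) against 75.4 ± 41.4 CPM (SD, n = 4). Its overlap came from low-class replicate 7, at 135 CPM, which lay above high-class replicate 8, at 131 CPM. Btc was 722 CPM on average against 422 CPM, with high-class replicate 2 at 260 CPM and low-class replicate 7 at 667 CPM.

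Further genes that lay apart upward are not on the list of ovulatory genes used here. Lrrn3, Mrap and Fam189a2 lay below every control in all 11 PFNA libraries, and Rhox8 did in 9. Lrrn3, a leucine-rich repeat membrane protein, followed the order of Lhcgr through its 8 highest libraries, from 55.4 CPM in replicate 6 to 8.30 CPM in replicate 8 of the high class, against 3.61 to 6.44 CPM in the low class (log2 difference 1.54). Mrap, an accessory protein of melanocortin receptors, ran from 54.8 to 147 CPM in the high class and from 29.0 to 54.5 CPM in the low class (1.03). Rhox8, a homeobox gene of the reproductive Rhox cluster on chromosome X, was 151 CPM in replicate 6, 13.0 to 53.3 CPM in the other high-class libraries and 6.57 to 12.7 CPM in the low class (1.49). Fam189a2 ran from 8.46 to 16.0 CPM against 4.91 to 6.90 CPM (0.89). For Mrap and Rhox8 the gap between the classes is far narrower than the spread within the high class, and both overlapped once TMM-normalized CPM were used with the classes kept, as did Fosb, Wdyhv1 and Serpini1 among the genes below. Below 10 CPM, Tnfsf11, which encodes the cytokine RANKL, was at 2.74 to 23.3 CPM against 0.645 to 1.81 CPM; it falls outside the rule for named genes and was singled out after its values were seen.

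The immediate early genes Nr4a1 and Fosb also lay apart, but their order differed from that of Lhcgr. Nr4a1, an orphan nuclear receptor that LH induces quickly, was 270, 305, 387, 405, 392, 311 and 306 CPM in the high class (replicates 6, 5, 3, 1, 9, 2 and 8) and 243, 161, 205 and 252 CPM in the low class (replicates 7, 4, 11 and 10), a log2 difference of 0.66. The library with by far the most Lhcgr, replicate 6, had the least Nr4a1 of its class. Fosb, an AP-1 subunit, ran from 40.2 to 67.7 CPM against 28.0 to 39.1 CPM (0.52). Smaller upward gaps were found for Wdyhv1, AI413582 and Serpini1 (0.41 to 0.54).

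Downward gaps were small. Among the 12 genes named, the log2 differences ran from -0.59 for Filip1l to -0.24 for Kctd20. Filip1l, a filamin-interacting protein, was 41.2 to 79.7 CPM in the high class and 82.1, 102, 90.9 and 88.2 CPM in low-class replicates 7, 4, 11 and 10. Hk2, the glycolytic enzyme hexokinase 2, was 27.2 to 37.7 CPM in the high class and 38.7, 50.7, 40.0 and 40.1 CPM in the low class. Nop58, Krr1, Ebna1bp2 and Gemin5, which serve ribosomal RNA processing or the assembly of ribonucleoproteins, were among the 12, with log2 differences of -0.29, -0.28, -0.24 and -0.52. Slc25a37, Smim19, Sprtn, Mfhas1 and Phc1 complete the list, between -0.47 and -0.27. These gaps depended on the scaling. With TMM-normalized CPM 11 of the 12 overlapped when the classes were set again, all but Gemin5, and 7 overlapped with the classes kept, among them Filip1l, Hk2 and Gemin5.

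**Figure D1:**
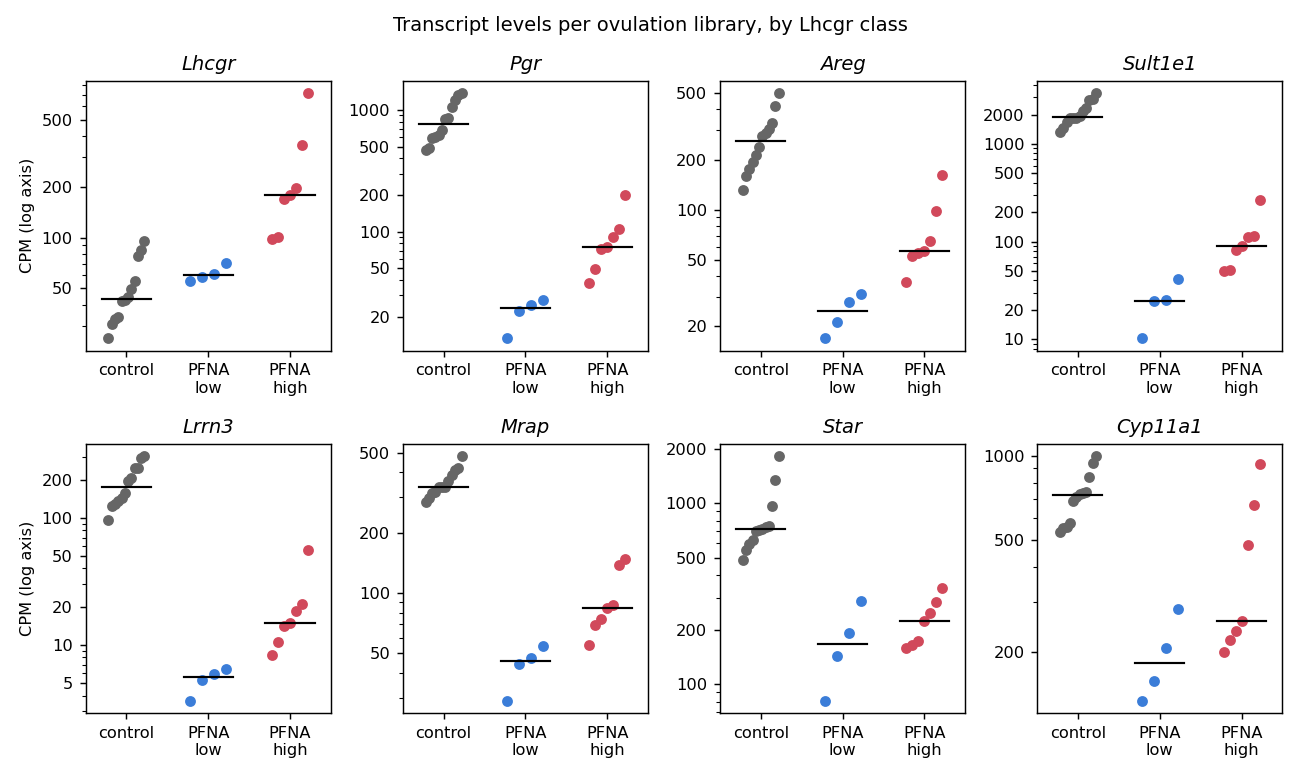
CPM on a log axis for 8 genes in the 12 controls, the 4 low-class and the 7 high-class PFNA libraries; each point is a library and each line the group's median. Pgr, Areg, Sult1e1, Lrrn3 and Mrap part the PFNA classes without overlap and lie below the control medians in both, whereas Star and Cyp11a1 overlap between the classes.

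**Figure D2:**
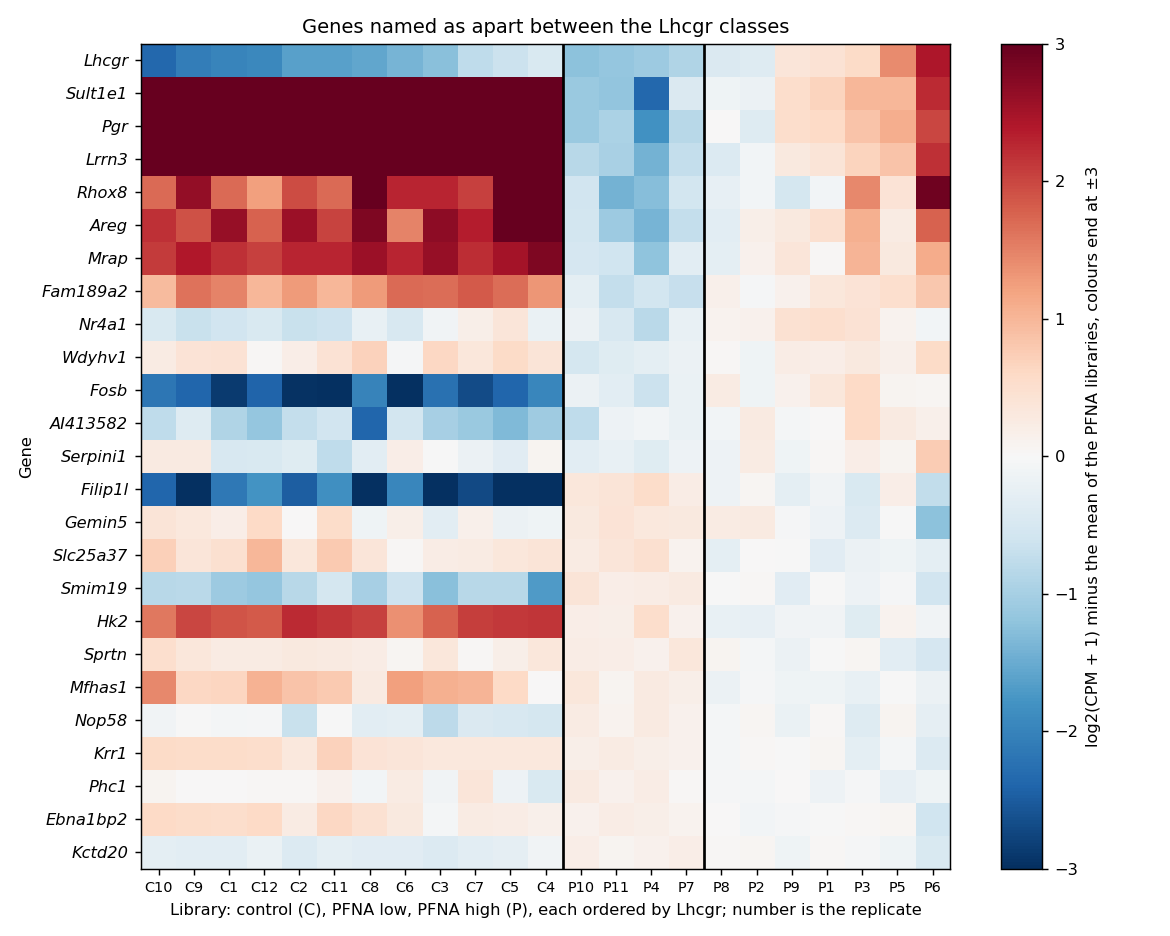
Each column is a library (C, control; P, PFNA, with its replicate number), ordered by Lhcgr within controls, low class and high class; colour gives log2(CPM + 1) minus the mean of the 11 PFNA libraries, cut at 3 in both directions. The upper genes step up from the low to the high class, with replicate 6 (P6) at the end, and the lower genes step down by much less.

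The comparison of PFNA with control libraries follows the labels and is independent of the classes for every gene but Lhcgr, whose own rise was used to set them. In edgeR's quasi-likelihood test with Benjamini-Hochberg adjustment over all genes, 5100 of the 13440 genes rose (37.9%) and 4736 fell (35.2%). Of the 28 genes that lay apart upward, 8 rose with PFNA and 17 fell; of the 26 that lay apart downward, 6 rose and 11 fell. Pgr fell by 3.78 on the log2 scale (SE 0.42, adjusted p = 1.93e-08, lower in 11 of 11 libraries than any control). Sult1e1 fell by 4.84 (SE 0.45, adjusted p = 1.04e-09), and Lrrn3 fell by 3.77 (SE 0.42, adjusted p = 1.73e-08), each with all 11 libraries below every control. Areg fell by 2.36 (SE 0.35, adjusted p = 2.14e-06), with 10 libraries below every control. The exception, replicate 6, had 161 CPM of Areg, inside the control range of 132 to 500 CPM.

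The steroidogenic markers fell as well. Star fell by 2.13 (log2, SE 0.27, edgeR adjusted p = 1.27e-07), with all 11 PFNA libraries below the lowest control of 485 CPM. Cyp11a1 fell by 1.14 (SE 0.30, adjusted p = 0.00140), with 9 of 11 libraries below the lowest control of 536 CPM. The 2 exceptions were replicates 6 and 5, the libraries highest in Lhcgr, at 932 and 667 CPM. Nr4a1 did not pass the test (log2 change 0.21, SE 0.16, adjusted p = 0.245), with the high class at 146% of the control mean and the low class at 92.4%. Fosb rose by 2.54 (SE 0.19, adjusted p = 1.48e-11) and Filip1l by 2.64 (SE 0.25, adjusted p = 8.80e-10), each above every control in all 11 libraries, so that for Fosb the high class and for Filip1l the low class lay farther from the controls.

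When either class was left out, the remaining libraries gave the same picture for these ovulatory genes, with values that differ in size. The fitted log2 difference from the controls was -3.31 with the high class alone and -5.43 with the low class alone for Pgr, -4.35 and -6.54 for Sult1e1, -1.94 and -3.64 for Areg, and -3.23 and -5.12 for Ereg. Star stood at -1.99 and -2.41, and Cyp11a1 at -0.81 and -2.01. These pairs share the same controls and their difference was not tested. For Lhcgr itself they were 2.28 and 0.10, a gap that the rule for the classes set in advance.

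**Figure D3:**
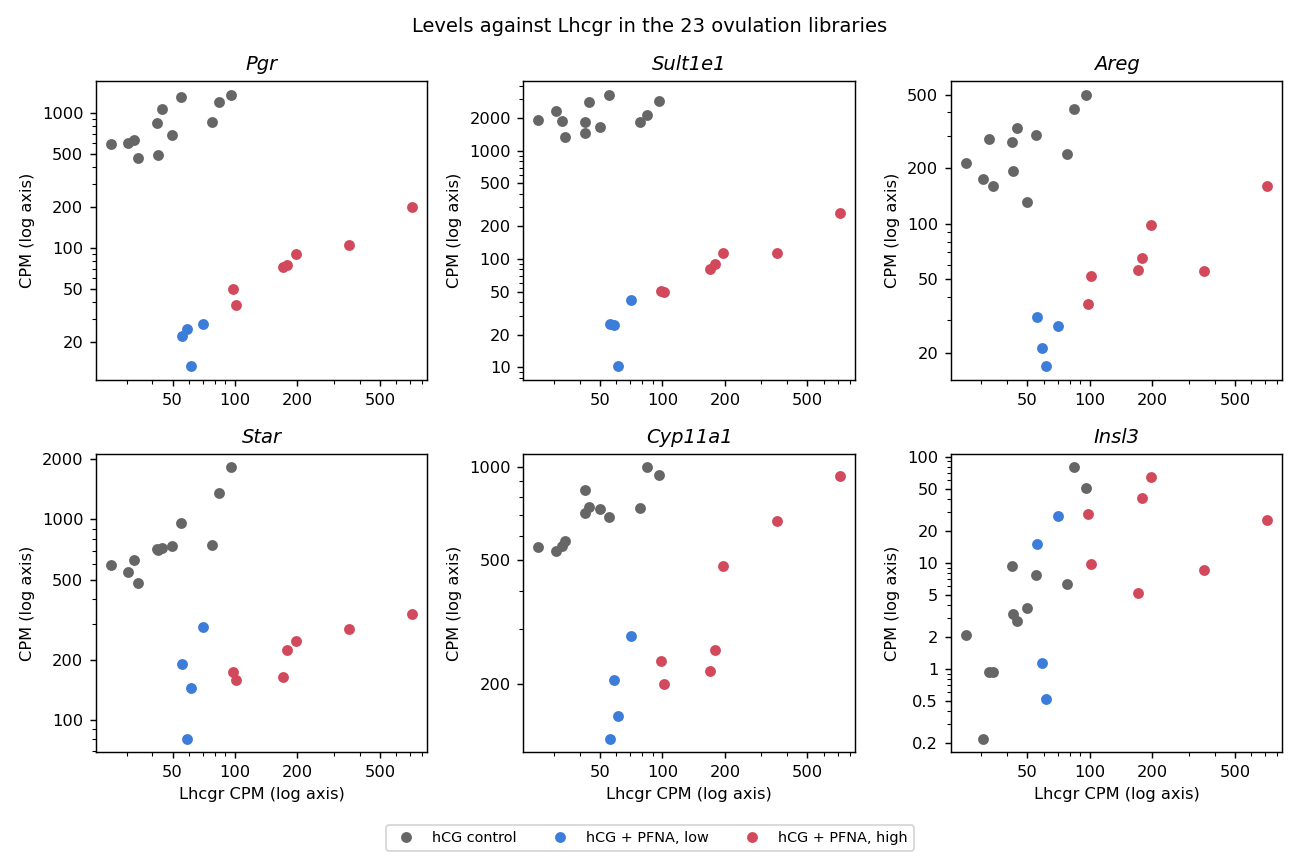
Level of 6 genes against Lhcgr, both in CPM on log axes, in each of the 23 ovulation libraries (grey, control; blue, low class; red, high class). At the Lhcgr levels that the low class shares with the controls, Pgr, Sult1e1, Areg and Star of the low class lie below every control, while Insl3, a theca cell product, overlaps the range of the controls in both classes.

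Whether the same genes go with Lhcgr in follicles without PFNA was tested in the controls, none of which belongs to a class, although the highest of them in Lhcgr, control replicate 4, set the threshold. Across the 12 ovulation controls, the slope of each gene on log2(Lhcgr CPM + 1) was fitted with edgeR's quasi-likelihood test; it passed at an adjusted p under 0.05 for 127 genes upward (0.945%) and 49 downward (0.365%). Of the 28 genes that lay apart upward between the PFNA classes, 22 had a positive slope, beside 6530 of all 13440 genes, and 1 of them passed, Nr4a1, with 0.52 log2 units per log2 unit of Lhcgr (SE 0.11, adjusted p = 0.0336). Pgr (0.78, SE 0.20, adjusted p = 0.0672), Lrrn3 (0.79, SE 0.18, adjusted p = 0.0569), Areg (0.68, SE 0.23, adjusted p = 0.129) and Rhox8 (0.92, SE 0.29, adjusted p = 0.116) had positive slopes that missed the threshold. Sult1e1 had 0.34 (SE 0.20, adjusted p = 0.365). Of the 26 genes that lay apart downward, 18 had a negative slope and none passed. At an unadjusted p under 0.05, 11 of the 28 and 5 of the 26 had a slope in their own direction, beside 2756 of all 13440 genes in either direction.

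The markers that overlapped between the PFNA classes did pass among the controls. Star rose with Lhcgr by 0.91 (per log2 unit of Lhcgr, SE 0.14, edgeR adjusted p = 0.0161) and Cyp11a1 by 0.52 (SE 0.08, adjusted p = 0.0161). Sfrp4, a secreted Wnt-binding protein that luteal cells express, rose by 0.70 (SE 0.12, adjusted p = 0.0182). Ddit4l (0.94, SE 0.10), Epdr1, Adamts9 and Mdfic led the upward slopes, and Slc9a7, Smad6, Samd4, Aasdhppt and Cln3 the downward ones. In the PFNA classes 87 of the 127 genes with a rising slope had a higher mean in the high class (median log2 difference 0.10) and 40 of the 49 with a falling slope a lower one (median -0.15), beside 4891 of all 13440 genes higher and 8549 lower (median -0.06).

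The calls, though not the size of every slope, depended on the 2 controls highest in Lhcgr. Control replicates 4 and 5, at 96.0 and 84.1 CPM of Lhcgr, also had the most Insl3, a peptide made by theca cells, at 50.9 and 79.6 CPM against 0.219 to 9.36 CPM in the other 10 controls. The slope of Insl3 was 3.44 (SE 0.52, edgeR adjusted p = 0.0174). Without both libraries no gene passed (1108 at an unadjusted p under 0.05). The slopes then were 0.95 for Ddit4l, 0.72 for Pgr and 0.49 for Nr4a1, close to those over all controls, and 0.50 for Star, 0.47 for Sfrp4 and 1.999 for Insl3, which were smaller. Without control replicate 4 alone 2 genes passed, and without replicate 5 alone 4. With the summed Cyp17a1 and Insl3 level as a covariate no gene passed either (794 at an unadjusted p under 0.05), and the slope of Star became 0.65 (adjusted p = 0.837) and that of Pgr 0.72 (adjusted p = 0.841). DESeq2 called 912 genes in the full set of controls. Of the other single controls, leaving out replicate 7 gave 778 genes, replicates 2 and 6 gave 154 and 230, replicates 9 and 12 gave 48 each, replicate 10 gave 72, replicate 11 gave 88, replicate 1 gave 94, and replicates 3 and 8 gave 117 each.

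Among the 10 maturation controls, whose label names DMSO and not hCG as the treatment, the slope on Lhcgr passed in limma for 4 genes upward (0.0294% of 13590) and 84 downward (0.618%). Of the 28 genes that lay apart upward in the ovulation window, 15 could be tested there, 7 had a positive slope and none passed. Pgr, Sult1e1, Areg and Lrrn3 lay under the minimum of that table. Cyp11a1 had a slope of 0.37 (adjusted p = 0.698) and Star of -0.12 (adjusted p = 0.972). Of the 26 that lay apart downward, 21 could be tested, 13 had a negative slope and none passed. Of all 11183 genes tested in both windows, 4332 had a positive slope, so that these shares are near the background.

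The ovulatory list as a whole differed in part between the classes. Of 30 ovulatory genes tested, 21 had a higher mean in the high class and 9 a lower one, beside 36.4% of all genes higher. The median log2 difference was 0.21, beside -0.06 over all genes. Of the 30, 3 lay apart, all upward, beside 0.208% of all genes. In the labelled comparison 25 of the 30 fell with PFNA and 3 rose, where 35.2% and 37.9% of all genes did. Tnfaip6, which links hyaluronan in the cumulus matrix, was 101 ± 35.6 CPM (SD, n = 7) in the high class and 42.3 ± 10.3 CPM (SD, n = 4) in the low class, with an overlap of 1 library on each side. Ptgs2, the prostaglandin synthase of ovulation, was 184 ± 53.5 CPM against 112 ± 28.0 CPM, and high-class replicate 2, at 93.9 CPM, lay below 3 of the 4 low-class libraries. Both lay far below their controls, Tnfaip6 at 7.99% and 3.34% of the control mean and Ptgs2 at 3.46% and 2.11%. Runx1, a transcription factor of the wave, was 135 CPM in the high class and 117 CPM in the low class, and Cebpb was 369 and 358 CPM. Pgr, Sult1e1, Areg, Ereg and Tnfaip6 thus had the widest differences of the wave between the classes, while Runx1 (0.18) and Cebpb (-0.0042) hardly differed, although all of them fell with PFNA.

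Genes that FSH brings up in granulosa cells did not part the classes. Of 24 tested, 13 had a higher mean in the high class (median log2 difference 0.04), beside 4891 of all 13440 genes, and none lay apart. With PFNA 18 rose and 4 fell, where 37.9% and 35.2% of all genes did. Without replicates 5 and 6, 20 of the 24 were higher (median 0.17), beside 6701 of all 13440 genes. Fshr, the FSH receptor, was 36.1 to 93.0 CPM in the high class and 57.8 to 70.4 CPM in the low class, and rose with PFNA by 2.20 (log2, SE 0.16, edgeR adjusted p = 4.67e-12). Its lowest values among the PFNA libraries, 36.1 and 48.7 CPM, were those of replicates 5 and 6, the libraries highest in Lhcgr. Cyp19a1, the aromatase that makes estradiol, was 251 ± 103 CPM (SD, n = 7) against 200.2 ± 93.5 CPM (SD, n = 4) and rose by 2.23 (SE 0.24, adjusted p = 7.73e-09). Prkar2b, a protein kinase A regulatory subunit induced by FSH, and Nr5a2, a nuclear receptor of granulosa cells, were above every control in all 11 libraries, at 3633 and 497 CPM in the high class and 3283 and 415 CPM in the low class. Amh, made by granulosa cells of smaller follicles and by cumulus cells, was 87.1 CPM in low-class replicate 10 and 23.3 CPM in high-class replicate 2, and at most 4.34 CPM in the other PFNA libraries.

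In the steroid synthesis list, 14 of 20 genes had a higher mean in the high class (median 0.14), beside 36.4% of all genes, and none lay apart. With PFNA 6 rose and 8 fell, near the shares of 37.9% and 35.2% over all genes. Among the controls 4 of the 20 passed for a slope on Lhcgr, all upward (0.945% of all genes), and none did without control replicates 4 and 5 or with the theca covariate. Hsd3b1, which makes progesterone from pregnenolone, was 1686 CPM in the high class and 1634 CPM in the low class and did not pass in the PFNA comparison (log2 change -0.21, SE 0.14, adjusted p = 0.159). Cholesterol synthesis genes were more even. All 26 had a higher mean in the high class, with a median log2 difference of 0.23, beside 36.4% of all genes higher. With PFNA 19 fell and 3 rose, where 35.2% and 37.9% of all genes did. The class differences were small and overlapped gene by gene; Hmgcs1, at the entry of the pathway, was 60.5 to 173 CPM in the high class and 67.1 to 104 CPM in the low class. The count was 26 of 26 with TMM-normalized CPM in both forms and without replicates 2 and 8, and 25 of 26 without replicates 5 and 6. Of all genes, 47.7% were higher with TMM and the classes kept and 44.8% with the classes set again. The share was 32.1% without replicates 2 and 8 and 49.9% without replicates 5 and 6.

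Genes of LH receptor signalling hardly differed, with 15 of 28 higher in mean in the high class (median 0.01), beside 4891 of all 13440 genes. With PFNA 17 fell and 6 rose, where 35.2% and 37.9% of all genes did. Within this list the cAMP-induced repressor Crem was 116 and 69.4 CPM in replicates 6 and 5 and 34.3 to 58.6 CPM in the other 9 PFNA libraries. Of 17 luteal markers tested, 10 had a higher mean in the high class (median 0.04), beside 4891 of all 13440 genes. With TMM-normalized CPM and the classes set again 14 did (median 0.29), beside 6026 of all 13440 genes. Sfrp4, the member with the widest difference, was 666, 316, 273, 132, 131, 33.2 and 91.0 CPM in replicates 6, 5, 3, 1, 9, 2 and 8 and 111, 55.5, 76.8 and 28.5 CPM in replicates 7, 4, 11 and 10. It followed the order of Lhcgr over the 5 highest libraries and not below them.

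The heat shock and ATF4 lists leaned the other way. All 20 heat shock genes had a lower mean in the high class (median -0.16), beside 8549 of all 13440 genes. With PFNA 18 rose and 1 fell, where 37.9% and 35.2% of all genes did. With TMM-normalized CPM and the classes kept, 17 of 20 were still lower (median -0.11), beside 7031 of all 13440 genes. With the classes set again as well, the direction flipped, to 17 of 20 higher and a median of 0.11. Of all genes 6026 were then higher. Of 24 targets of ATF4, the factor of amino acid and integrated stress responses, 23 had a lower mean in the high class (median -0.38). Among all 13440 genes 8549 were lower. With PFNA 18 of the 24 rose and 4 fell, where 37.9% and 35.2% of all genes did. In the 5 alternatives run for the lists, 22 or 23 of the 24 were lower, beside 6739 to 9132 of all 13440 genes. For 1 of the 5, a threshold at the control mean plus 2 SD, the classes were the same libraries. Trib3, one of these targets, was 114 CPM in replicate 10 and 104 CPM in replicate 2, a low-class and a high-class library, and 18.1 to 57.3 CPM in the other 9. The other stress lists did not lean so. Of 18 NRF2 antioxidant genes 11 were higher in the high class (median 0.02), beside 4891 of all 13440 genes. With TMM-normalized CPM 16 were higher with the classes kept and 15 with the classes set again, beside 6409 and 6026 of all genes. Of 20 p53 and apoptosis genes 12 were lower (median -0.08), beside 8549 of all 13440 genes lower.

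**Figure D4:**
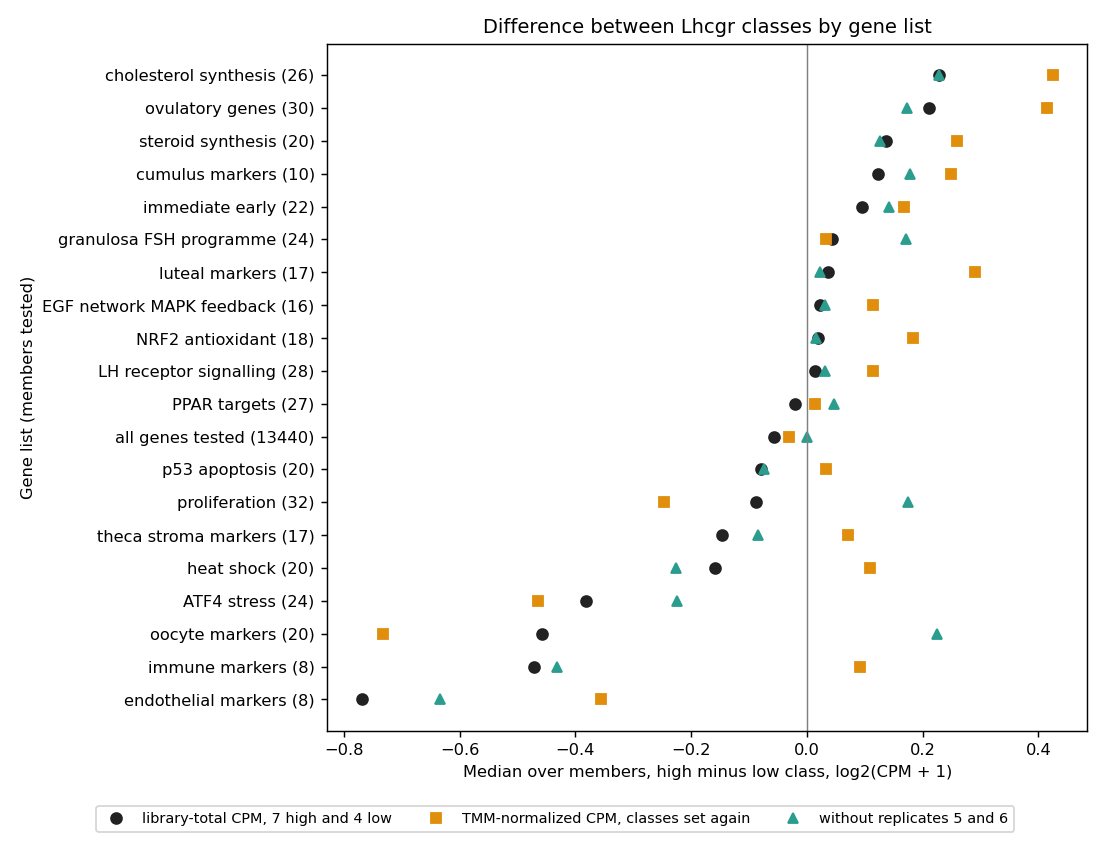
Median over the members of each gene list of the difference between the high and low class in log2(CPM + 1), with the number of members tested in brackets; circles give the 7 and 4 libraries by library total, squares TMM-normalized CPM with 5 and 6 libraries, triangles the classes without replicates 5 and 6. Cholesterol synthesis, ovulatory and steroid synthesis genes lie to the right of all genes in the 3 settings, and heat shock, proliferation and oocyte genes are among the lists that change side.

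Some markers of other cells also differed in mean between the classes, though none of those tested lay apart. Their part in these results was not tested. In such bulk libraries fewer cells of a type and less RNA per cell cannot be told apart. All 20 oocyte transcripts tested had a lower mean in the high class (median -0.46), beside 8549 of all 13440 genes. The summed oocyte markers ran from 55.8 to 761 CPM in the high class, from 338 to 932 CPM in the low class and from 143 to 632 CPM in controls. High-class replicate 5 held the lowest sum, with the zona pellucida gene Zp3 at 0 and Gdf9 at 7.56 CPM. Without replicates 5 and 6 the direction flipped, to 17 of 20 oocyte genes higher (median 0.22) and 29 of 32 proliferation genes higher (median 0.17, against 8 of 32 and -0.09 with all libraries). Of all 13440 genes 6701 were then higher. All 8 endothelial markers were lower in mean in the high class (median -0.77), beside 8549 of all 13440 genes. Their sums were 37.9 to 345 CPM against 174 to 430 CPM in the low class. The median was -0.36 with TMM-normalized CPM and the classes set again. Of 8 immune markers 7 were lower (median -0.47), beside 8549 of all 13440 genes. Their sums were 4.73 to 112 CPM against 26.4 to 160 CPM. With TMM-normalized CPM and the classes set again 5 of 8 were higher (median 0.09), beside 6026 of all 13440 genes. Of 17 theca and stroma markers, 8 were higher and 9 lower (median -0.15), beside 4891 and 8549 of all 13440 genes. Their sums were 1475 to 3703 CPM in the high class, 2215 to 3319 CPM in the low class and 306 to 2450 CPM in controls. Insl3 was 25.3, 8.60, 63.8, 40.5, 5.20, 9.79 and 28.8 CPM in the high class and 27.6, 0.516, 1.13 and 14.9 CPM in the low class.

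Leaving out libraries cannot close the gap of genes picked for lying apart, so only its size is given here. Replicate 6 was the highest in Lhcgr and replicate 5 the lowest in oocyte transcripts. Without replicates 5 and 6 the log2 differences between the classes were 1.64 for Sult1e1, 1.503 for Pgr, 1.28 for Areg and 1.15 for Lrrn3, and 147 genes lay apart, 71 upward and 76 downward. Without replicates 2 and 8 the numbers were 109 and 192. With TMM-normalized CPM and the classes set again, 97 genes lay apart upward and 55 downward, of which 13 and 1 were among the 28 and 26. Sult1e1, Pgr, Areg, Lrrn3, Mrap, Nr4a1 and Tnfsf11 were among those 13, and Ereg, Tnfaip6 and Sfrp4 then lay apart upward as well. Rhox8, Fam189a2, Fosb, AI413582 and Serpini1 overlapped in that setting, as did Star and Cyp11a1 and the downward genes other than Gemin5 named above.

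Depth did not follow the classes. In units of 1000000 counts, library totals ran from 10.6 to 19.5 in the high class, from 13.2 to 16.7 in the low class and from 11.96 to 16.05 in the controls. Between 15517 and 16884 genes had a count above 0 in a PFNA library, with the lowest numbers in replicates 6 and 5. No library pair agreed within sampling noise.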

How the data were processed

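Poly-A RNA of CD-1 mouse ovarian follicles was sequenced, per the labels. The submitters' processing notes name Bowtie2, HISAT2 and Partek without versions. The build and the counting settings are not given in the sources used here. For the ovulation window the authors deposited estimated counts per gene, which were rounded to whole numbers for testing. The maturation values the authors deposited are TPM, as each library sums to 1000000, so depth is unknown there. Gene starts are as deposited and ends are the position before the deposited stop.

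CPM used the library total. PFNA was compared with control, and slopes on log2(Lhcgr CPM + 1) in 12 controls were fitted, in edgeR 4.0.16 (R 4.3.3; filterByExpr, TMM, robust quasi-likelihood), with DESeq2 1.42.0 as an alternative. The planned count test could not be used on TPM, so maturation slopes were fitted with limma 3.58.1 on log2(TPM + 1), mean of at least 1 TPM, in 10 controls. This scale understates changes of low genes. Column names tied 1 column of per-sample values to no title, and it was not used. Adjusted p is Benjamini-Hochberg with a threshold of 0.05. On simulated counts or TPM with 200 changed genes at a log2 effect of 1, 82%, 75% and 79% were recovered for the PFNA comparison, the ovulation slopes and the maturation slopes. These simulations changed far fewer genes than were called for PFNA here and drew the noise of each gene independently. The recovered shares may therefore not hold for these data.

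Named were the 12 genes in each direction with the largest difference between the classes in mean log2(CPM + 1), among genes whose classes do not overlap, with a class mean of at least 10 CPM. A panel of 30 genes, the leading member of each of 20 lists and the 5 strongest slopes in each direction were added. Members and lists were chosen with earlier results of these data known. Promoters are from RefSeq tables for GRCm38.p6, and genes without an entry there are named only.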

Additional observations from a re-analysis of the deposited data

Results flagged for a closer look

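In groups of 4 to 10 libraries, 104 sets of values (genes in the high and low class) were searched for a library far from its neighbours relative to the range of its class (Dixon's criterion at 95%). It was met 16 times, where 104 independent sets would give about 5.2. These sets are not independent, as they share the same libraries. They also include Lhcgr, which set the classes, and genes picked for their class difference. Nothing is therefore read from the excess.

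PFNA replicate 6, the library with the most Lhcgr (717 CPM, next 355), accounts for 12 of the 16. It was the highest of the high class in Sult1e1 (268.5 CPM, next 113.5), Pgr (201.6, next 105.6), Lrrn3 (55.4, next 21.0), Rhox8 (151.1, next 53.3), Serpini1 (18.2, next 12.4), Ereg (685.6, next 236), Runx2 (104.1, next 53.2), Inhba (9011, next 6083) and Prkar2b (5130, next 3535). It was the lowest of the class in Ebna1bp2 (50.96 CPM, next 73.67) and Kctd20 (68.95, next 86.34). Its depth of 14.8 (in units of 1000000 counts) was within the range of the others.

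In replicate 2, Hsd3b1 was 3092 CPM against 1655 CPM in the next library of the high class, and Amh 23.25 against 3.695 CPM. In the low class, Amh was 87.12 CPM in replicate 10 against 4.339 CPM in the next, and Hk2 was 50.75 CPM in replicate 4 against 40.14 CPM.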

How the results depend on the processing

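No named gene reversed among the values followed, which for the classes covered only named genes lying apart. Such genes cannot reverse when libraries are left out. Other named genes did change side between the classes without replicates 5 and 6, among them Foxl2 (-0.39 to 0.09) and Cebpb (-0.0042 to 0.16). With the replicate number as a block, the PFNA calls went from 5101 higher and 4736 lower to 4660 and 4672. Gene lists also changed side between the Lhcgr classes. Heat shock went from 0 of 20 genes higher to 3 with TMM-normalized CPM and the classes kept, and to 17 with the classes set again. Without replicates 5 and 6 oocyte markers went from 0 of 20 to 17 and proliferation from 8 of 32 to 29. Over all 13440 genes, 4891 higher became 6409 and 6026 in those forms of TMM, and 6701 without replicates 5 and 6. With the classes set again, immune markers (5 of 8 higher), theca and stroma markers (9 of 17) and p53 genes (11 of 20) also had medians above 0, and the median of PPAR targets, -0.02, became 0.01. The count of genes that differ between PFNA and control moved by less than 1.5 times in each alternative run (9013 to 12190 beside 9837 with Lhcgr included). Leaving out each library in turn gave 9662 to 9985. The replicate numbers shared by the PFNA and control groups do not pair the libraries: in 11 pairs the correlation of deviations from the group means ran from -0.17 to 0.05 and exceeded 0.1 in 0. With the replicate number as a block, 9332 genes were called. Among ovulation controls the 176 slopes became 912 with DESeq2, 0 with the theca covariate (added after seeing the data), 0 without the 2 libraries farthest from the median of Lhcgr, and 2 to 778 when each library was left out in turn. The 88 slopes among maturation controls became 5 without a filter on low values, 0 without the 2 libraries farthest from the median (1002 at an unadjusted p under 0.05 in limma), and 0 to 175 when each library was left out in turn. They fell to 0 without replicate 8 or 12 (1174 and 1295 unadjusted), 1 without replicate 3, 10 without 1, and 42, 43, 45 and 53 without 10, 9, 11 and 5, and rose to 175 without 2. The 54 genes lying apart between the Lhcgr classes became 152 with TMM-normalized CPM and the classes set again, and 66 to 189 when each library was left out in turn. They became 147 without replicates 5 and 6 and 301 without replicates 2 and 8; both were added after seeing the data, as were TMM-normalized CPM with the classes kept (43). Fewer libraries leave fewer values that can overlap. Without a single library the count was 189 without replicate 7, 173 without 10, 153 without 2, 130 without 11, 104 without 5, and 92, 91 and 82 without 4, 8 and 9. The cause of the other changes was not tested. For single named genes, 111 calls were lost, 9 gained and 4 values moved, and 2207 values kept their direction and side of the threshold. Without the high class, the PFNA calls lost included those for AI413582, Ddit4l, Slc25a37 and Sprtn. The call for Lhcgr was lost too. The rule kept the low class at or below the highest control in Lhcgr, so nothing is read from that loss. Without the low class, the PFNA calls lost included those for Kctd20 and Wdyhv1.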
